A study of Oryza sativa Indica Group with 10 samples.

Results

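The genes described here encode the best known early components of the auxin response in rice: Aux/IAA repressors (IAA genes), auxin response factors (ARF), the small auxin-up RNA gene SAUR39, GH3 conjugating enzymes and PIN efflux carriers. Members were taken by name, as genes whose symbol or synonym is IAA, ARF, SAUR, GH3 or PIN followed by a number. Of 70 genes with such a name, 58 had a probe set paired with that gene alone, among 17905 genes measured in this way. They were 26 of 28 IAA genes, 17 of 23 ARF genes, the 1 SAUR gene, 9 of 9 GH3 genes and 5 of 9 PIN genes. The other 12 genes, which include PIN1A, PIN1B and PIN1C, were not analysed here. Where a gene had several probe sets, the one with the highest mean signal stands for it.

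Transcript levels were measured on 10 Affymetrix rice arrays in whole seedlings of the Indica cultivar Pusa Basmati 1, grown in light on half-strength MS medium at 28 °C. The 5 groups had 2 biological replicates each: seedlings over-expressing OsbZIP48 (OE), seedlings carrying only the vector B4NU, OsbZIP48 knock-downs whose phenotype was lethal (KD lethal), knock-downs resembling wild type (KD wild-type-like), and seedlings carrying only the vector pANDA. The OsbZIP48 protein is a bZIP factor of the HY5 type, a class that controls how seedlings develop in light. pANDA is a vector built for RNA interference, and the knock-down seedlings were divided by their phenotype. OE was set against B4NU and both KD groups against pANDA, a pairing the labels do not state. Seedling age is 10 days in the sample labels but 7 days in the design text, and roots are named in the extraction protocol although the tissue is labelled whole seedling. Neither the number of transgenic lines nor the level of OsbZIP48 itself was analysed here.

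Auxin acts by bringing Aux/IAA proteins to the receptor TIR1/AFB, which leads to their destruction. This frees the ARF proteins, which bind DNA at auxin-responsive genes. Many Aux/IAA, SAUR and GH3 genes are themselves among the targets that auxin raises, so the pathway limits its own response. GH3 enzymes join auxin or other acids to amino acids, and PIN proteins move auxin out of the cell or, for the PIN5 type, across the membrane of the endoplasmic reticulum. In seedlings, the hormone shapes root branching, bending towards gravity and light, and leaf and crown root formation.

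Some arrays stood apart and bear on the values below. Replicates correlated across all probe sets at r = 0.950 in OE, against 0.998 in B4NU, at 0.981 in KD lethal, at 0.993 in KD wild-type-like and at 0.997 in pANDA. In OE, replicate 1 was lower than replicate 2 for 48 of the 58 auxin genes, with a median difference of -0.64 (log2), against 71.0% of all genes and a median of -0.32. A check of RNA quality depended on the controls chosen. The 3' signal minus that of the 5' and middle probe sets of the Gapdh, cyclophilin and ubiquitin controls was -0.16 for OE replicate 1, 0.37 for KD lethal replicate 2 and 0.91 to 1.85 on the other arrays. The 3' minus 5' signal of another control group (gapdh, actin and ef1a), which was examined first, lay between 2.41 and 2.90 on all 10 arrays, with 2.76 for OE replicate 1 and 2.81 for KD lethal replicate 2, so neither array stood apart by it. Values are log2 signals, and a group is called at the floor if neither array exceeded the lowest value of its set (2.44) by 0.5. OE and B4NU arrays form 1 set, and KD lethal, KD wild-type-like and pANDA arrays form another that was apparently normalized apart, so levels are compared within a set unless stated.

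Markers of plant parts moved with the groups. The summed linear signal of 7 shoot and chloroplast markers was 1835 to 2647 in KD lethal, 16354 to 17955 in the KD wild-type-like group and 16657 to 16988 in pANDA. The sum of 8 root-linked markers was 75 to 77 in KD lethal, with NAS1, NAS2 and PIP2-7 at the floor in KD lethal alone, against 2923 to 3000 in KD wild-type-like and 2877 to 2923 in pANDA. In OE the sums were 10370 to 13402 for shoot and 1097 to 2035 for root markers, against 17783 to 17909 and 2620 in B4NU. Of the markers, 6 of 7 shoot and 6 of 8 root genes fell in KD lethal, and 3 of 7 and 1 of 8 in OE. Fewer cells of a type and less RNA per cell cannot be told apart in whole seedlings, and the part of these shifts in the auxin results was not tested.

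Of the 58 auxin genes, 41 were above the floor in all 5 groups, 10 were at the floor in all and 7 in some. The 10 were IAA16, IAA20, IAA26, ARF13, ARF14, GH3.1, GH3.9, GH3.11, PIN5C and PIN9. No PIN gene was above the floor in every group, whereas 21 of 26 IAA and 15 of 17 ARF genes were.

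**Figure D1:**
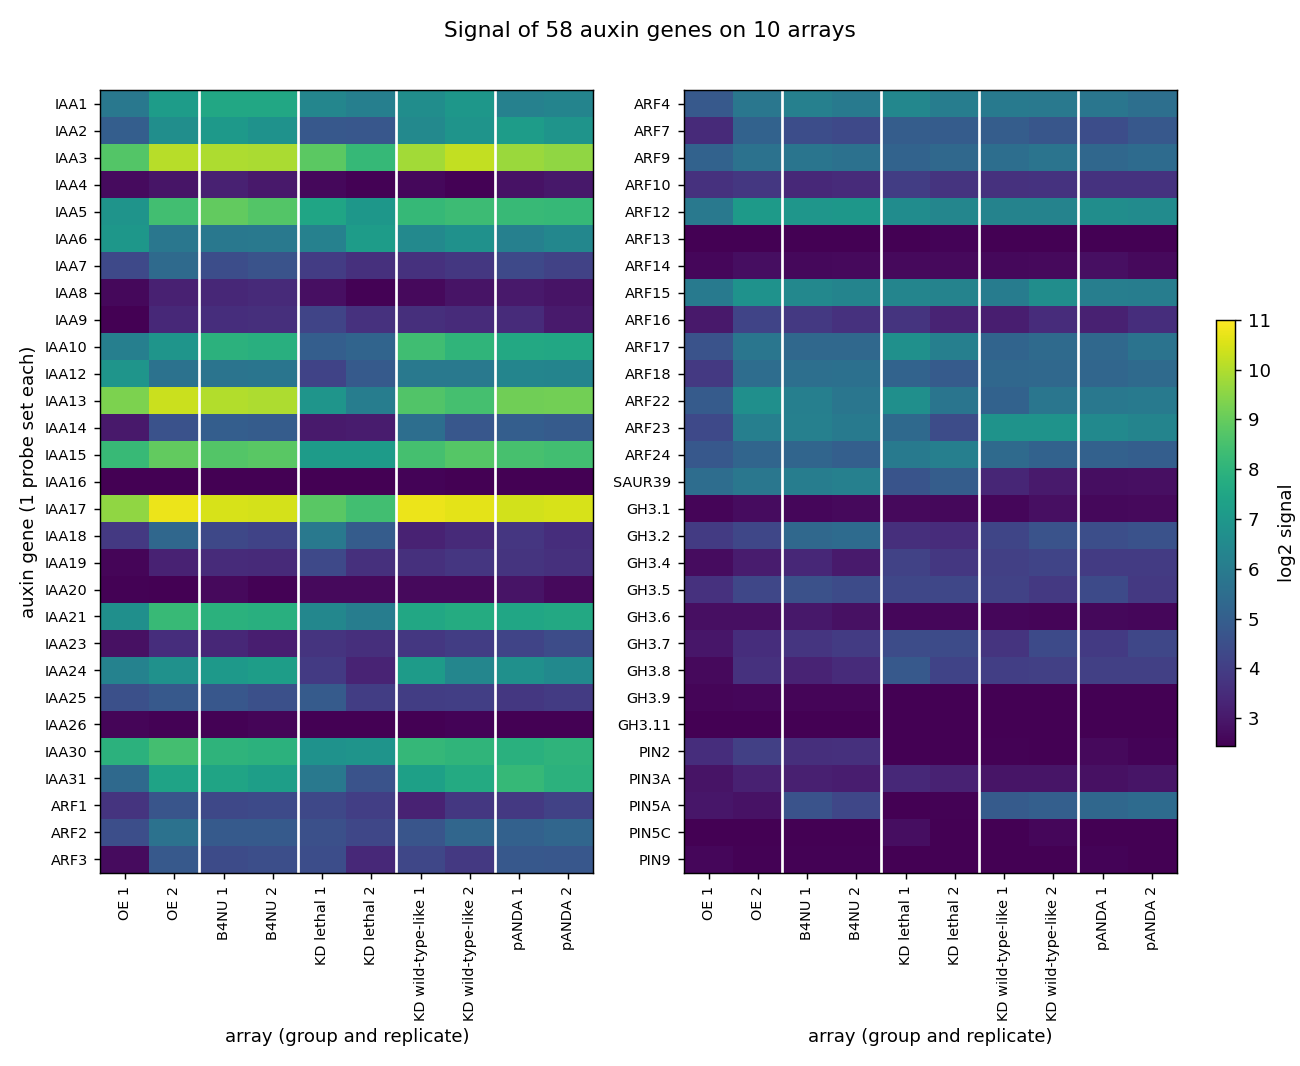
Log2 signal (colour) of the 58 auxin genes (rows) on the 10 arrays (columns, by group and replicate). KD lethal columns are darker for several IAA genes, OE replicate 1 is darker than OE replicate 2 for most genes, and 10 genes stay dark, at the floor, in every group.

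Lethal knock-down was compared with pANDA to ask which auxin transcripts differ in seedlings with the lethal phenotype. Of the 58 genes, 10 were called, 8 lower and 2 higher (limma, adjusted p under 0.05 over all 57258 probe sets). That is 17.2% of them, against 26.2% of all genes, 14.5% higher and 11.7% lower, so the auxin genes as a whole were not called more often than other genes. Their median difference was -0.03 (log2), against 0.02 over all genes. By family, 6 of 26 IAA genes fell and 0 rose, 1 of 17 ARF genes rose, SAUR39 rose, 1 of 9 GH3 genes fell and 1 of 5 PIN genes fell. The IAA genes had a median of -0.81 and 19 of 26 differences below 0, whereas the ARF genes had a median of 0.11. Over all 17905 genes, 7740 differences lay below 0.

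**Figure D2:**
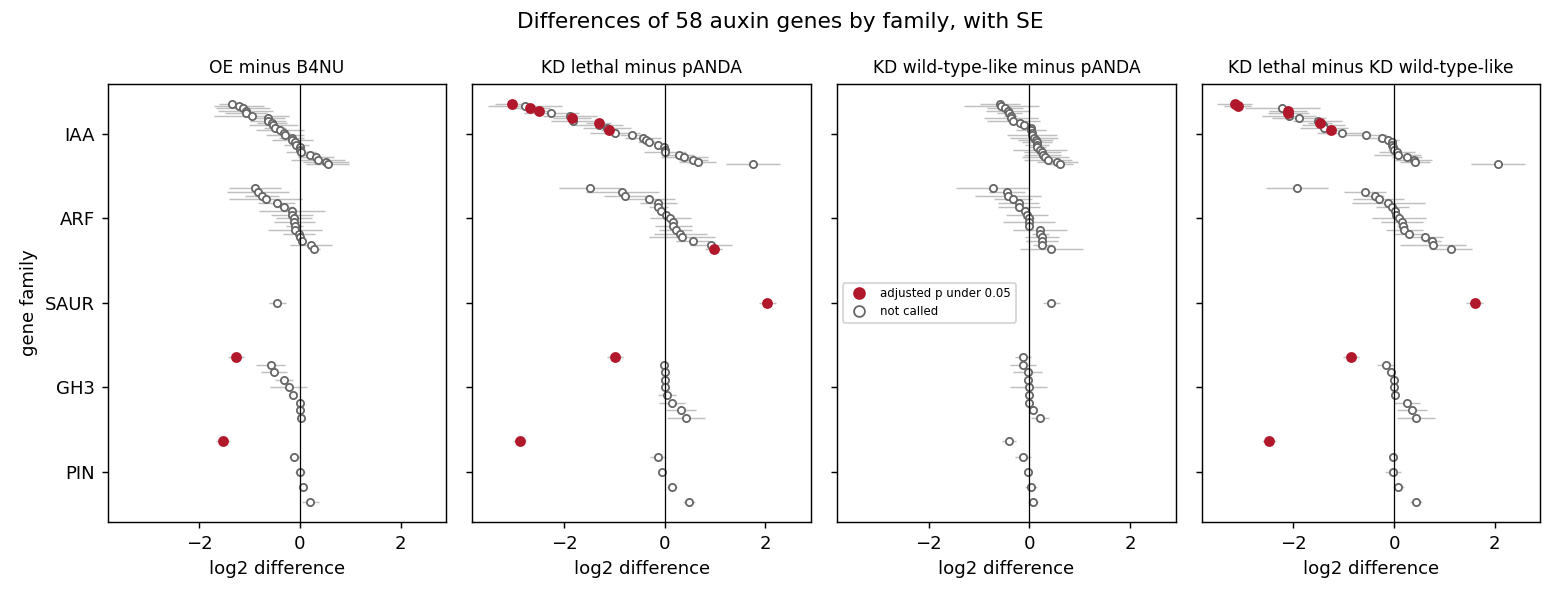
Log2 difference (horizontal axis) of each auxin gene with its SE, by family, in 4 comparisons. Filled points passed an adjusted p under 0.05, and in KD lethal minus pANDA the 6 filled IAA points lie between -3.03 and -1.10.

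Among the Aux/IAA repressor genes, IAA24 (LOC4342573) showed the fall of largest size in KD lethal. It stood at 3.90 and 3.29 in KD lethal, 7.14 and 6.37 in the KD wild-type-like group and 6.75 and 6.51 in pANDA. Both lethal arrays lay below every other array, and the difference from pANDA was -3.03 ± 0.35 (log2, SE), or 8.19-fold (adjusted p = 0.00486 with limma).

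IAA13 (LOC4334069), whose stabilised form reduces lateral roots in rice, was at 6.90 and 6.06 in KD lethal, 8.67 and 8.49 in the KD wild-type-like group and 9.14 and 9.19 in pANDA. It fell by 2.69 ± 0.40, or 6.44-fold (limma, adjusted p = 0.0117). The groups did not overlap, although the KD lethal replicates differed more than those of pANDA.

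IAA10 (LOC4331149), whose protein is a target of a rice dwarf virus protein, was at 4.98 and 5.21 in KD lethal, 8.36 and 8.05 in the KD wild-type-like group and 7.61 and 7.57 in pANDA. It fell 5.64-fold in KD lethal (limma, adjusted p = 0.0036), and the KD lethal values again lay apart from all others.

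Further Aux/IAA genes with high signal fell by less. IAA17 (LOC4338160) was at 8.79 and 8.41 in KD lethal, 10.76 and 10.66 in the KD wild-type-like group and 10.42 and 10.47 in pANDA, a fall of 3.59-fold (limma, adjusted p = 0.0331). Its probe set is of the kind that can match more than 1 transcript, so related sequences may add to the signal.

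IAA15 (LOC4337971) read 7.14 and 7.15 in KD lethal, 8.48 and 8.74 in the KD wild-type-like group and 8.51 and 8.41 in pANDA, a fall of 2.49-fold (limma, adjusted p = 0.0249). IAA30 (LOC4352721) read 6.82 and 6.86 in KD lethal, 8.15 and 8.05 in the KD wild-type-like group and 7.86 and 8.02 in pANDA, a fall of 2.14-fold (adjusted p = 0.0128). In both genes the lethal replicates were nearly equal and below the other 4 arrays of the set.

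Other Aux/IAA genes had differences of like size that did not pass. IAA31 (LOC4352722), the direct neighbour of IAA30 in the RefSeq gene order, was at 5.92 and 4.63 in KD lethal, 7.32 and 7.66 in the KD wild-type-like group and 8.18 and 7.93 in pANDA, a difference of -2.78 ± 0.74 (limma, adjusted p = 0.0790). The differences of IAA2, IAA14 and IAA12 were -2.25, -1.87 and -1.83 (adjusted p = 0.0566, 0.0972 and 0.0538). All 4 genes were lower on both KD lethal arrays than on both pANDA arrays. The fit takes its spread from all groups, and the OE replicates of these genes differed widely (SD 1.44, 1.20, 1.11 and 0.88 for IAA31, IAA2, IAA14 and IAA12). Without OE replicate 1, or without OE replicate 2, all 4 passed against pANDA (limma, adjusted p = 0.0215, 0.00324, 0.0145 and 0.0105), when 19 members and 36.8% of all genes were called.

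IAA18 ran the other way, at 5.91 and 4.94 in KD lethal, 3.26 and 3.44 in the KD wild-type-like group and 3.79 and 3.55 in pANDA, a difference of 1.76 ± 0.54 that did not pass (limma, adjusted p = 0.119). IAA1, which has been tied to auxin and brassinosteroid responses in rice, differed by 0.01 ± 0.41, with 6.35 and 6.15 in KD lethal and 6.19 and 6.29 in pANDA. The family therefore did not shift as a block.

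Among the response factors, ARF24 (LOC4352211) alone was called in KD lethal. ARF24 and ARF23 act together in rice on a gene for an actin-binding formin. ARF24 was at 5.92 and 6.12 in KD lethal, 5.40 and 5.14 in the KD wild-type-like group and 5.11 and 4.99 in pANDA, a rise of 1.96-fold (limma, adjusted p = 0.0215). Its partner ARF23 (LOC4350610) was at 5.38 and 4.43 in KD lethal, 6.85 and 6.82 in the KD wild-type-like group and 6.49 and 6.30 in pANDA, a difference of -1.49 ± 0.62 in the opposite direction that did not pass (adjusted p = 0.270).

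ARF12 (LOC4337363), which is needed for root elongation in rice, was at 6.61 and 6.35 in KD lethal, 6.28 and 6.28 in the KD wild-type-like group and 6.63 and 6.58 in pANDA. Its difference from pANDA, -0.12 ± 0.37, was smaller than its error. The remaining ARF genes ranged from -0.84 (ARF3) to 0.92 (ARF17).

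SAUR39 (LOC9271092), a negative regulator of auxin synthesis and transport in rice, was at 4.67 and 4.96 in KD lethal, 3.37 and 3.05 in the KD wild-type-like group and 2.77 and 2.78 in pANDA. The pANDA arrays were at the floor, so KD lethal was at least 3.66-fold higher (limma, adjusted p = 0.00156). This direction depends on the vector: B4NU seedlings stood at 6.07 and 6.17, and against them SAUR39 in KD lethal differed by -1.31 (limma, adjusted p = 0.00507), a comparison that crosses the separately normalized sets.

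Of the conjugating enzymes, GH3.2 (LOC4326893), which joins auxin to amino acids and affects drought and disease responses in rice, was at 3.60 and 3.53 in KD lethal, 4.24 and 4.62 in the KD wild-type-like group and 4.49 and 4.61 in pANDA. It fell 1.97-fold (limma, adjusted p = 0.0151). GH3.8, another auxin-conjugating enzyme gene, differed by 0.42 ± 0.37. GH3.5 (LOC4339756) is also named JAR1 and conjugates jasmonate instead of auxin, and it differed by 0.14 ± 0.26.

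Among the carriers, PIN5A (LOC4324368) was at 2.46 and 2.50 in KD lethal, 4.88 and 5.05 in the KD wild-type-like group and 5.30 and 5.43 in pANDA. KD lethal was at the floor and thus at least 5.38-fold lower (limma, adjusted p = 0.00029). It was the member with the smallest p in this comparison. PIN2, which directs root bending to gravity, was at the floor in all 3 groups of this set, with values of 2.45 to 2.64. PIN3A had a difference of 0.48 ± 0.12 (limma, adjusted p = 0.0602).

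**Figure D3:**
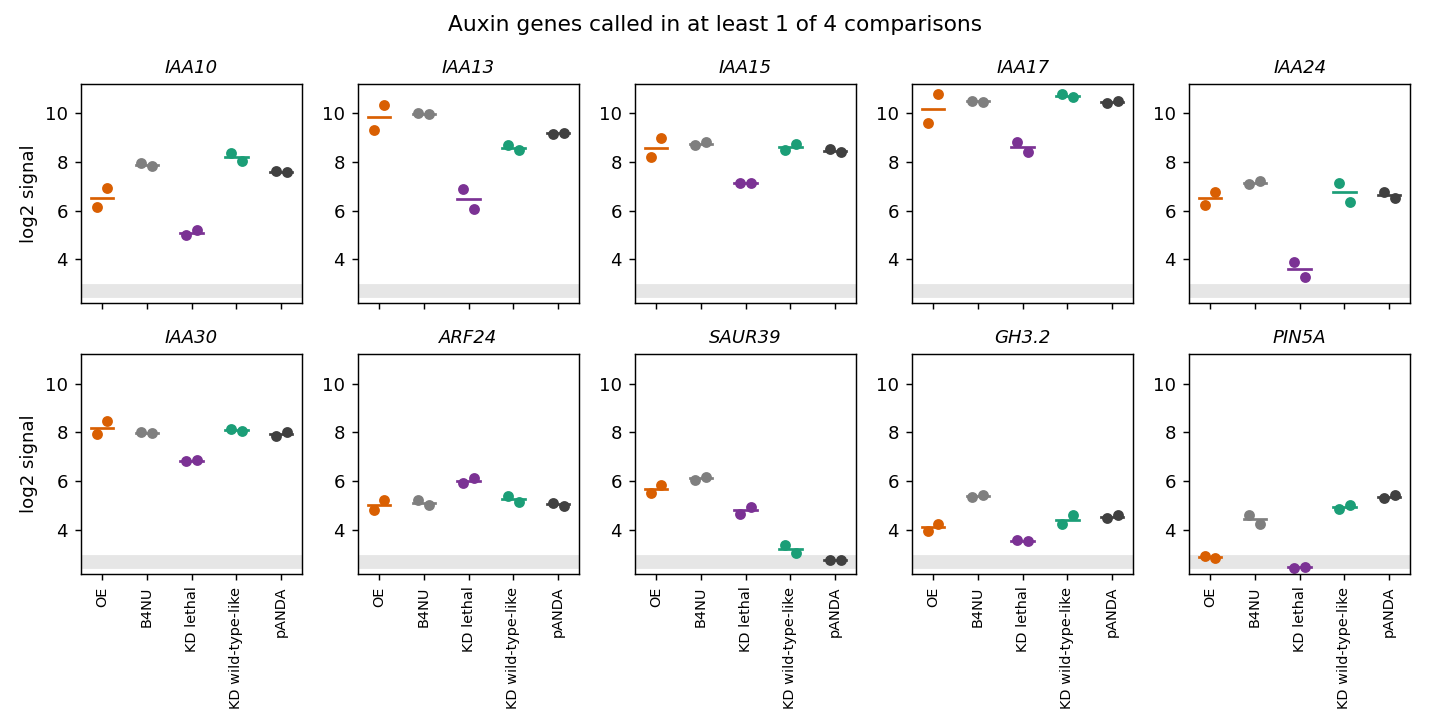
Log2 signal (vertical axis) of the 10 auxin genes called in at least 1 of the 4 comparisons with OE or KD seedlings, by group (horizontal axis). Points are arrays, lines are group means and the grey band is the floor, and the KD lethal points lie below both KD wild-type-like and pANDA in 8 genes and above both in ARF24 and SAUR39.

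These calls depended on single arrays, and the share of all genes called moved with them. Without 1 pANDA array, which leaves pANDA with 1 array, fewer members and a smaller share of all genes were called in KD lethal. PIN5A, IAA10, IAA24 and SAUR39 stayed called both times. Without pANDA replicate 1 and 2, the differences were -2.95 and -2.82 for PIN5A and -2.47 and -2.52 for IAA10. They were -2.91 and -3.15 for IAA24, and 2.03 and 2.05 for SAUR39. Without OE replicate 1 and KD lethal replicate 2, the arrays with the low values for the Gapdh, cyclophilin and ubiquitin controls, OE and KD lethal have 1 array each and are assumed to vary like the other groups. Then 23 were called, 13 lower and 10 higher, against 42.5% of all genes (15.5% lower and 27.1% higher). The genes added then included IAA12, IAA2, IAA31 and IAA21 as lower and IAA18 (2.24), ARF17 and IAA25 as higher, whereas GH3.2 was lost (limma, adjusted p = 0.0510). With the 4 arrays of these groups alone, IAA24, IAA13, IAA17, IAA30 and ARF24 did not pass.

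The lethal and wild-type-like knock-downs were compared directly to ask which auxin transcripts differ between knock-downs divided by phenotype. Of the 58 genes 9 were called, 8 lower and 1 higher in KD lethal, against 23.8% of all genes, with 10.2% lower and 13.6% higher. The median was -0.02, against 0.03 over all genes. The called genes were those called against pANDA without ARF24. This comparison shares the KD lethal arrays with the previous one, so it is no second test.

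In it, IAA24 fell 8.96-fold (limma, adjusted p = 0.00459) and IAA10 fell 8.63-fold (adjusted p = 0.00185). IAA17 and IAA13 fell 4.30-fold and 4.29-fold, IAA15 fell 2.77-fold, IAA30 fell 2.40-fold and GH3.2 fell 1.82-fold. PIN5A was at least 4.06-fold lower, and SAUR39 rose 3.04-fold. IAA18 had the highest difference of the members that did not pass, 2.07. The count moved with the processing. With all 10 arrays quantile normalized 16 members were called, 12 lower and 4 higher, against 27.9% of all genes, and without OE replicate 1 and KD lethal replicate 2 it was 24, 15 lower and 9 higher, against 40.9% of all genes (14.2% lower and 26.7% higher).

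KD wild-type-like seedlings gave no called difference from pANDA in any auxin gene by limma's adjusted test, with 0 of 58 called against 0.363% of all genes (0.134% higher and 0.229% lower), and 3 at an unadjusted p under 0.05. The smallest adjusted p was 0.748, and 0 were called without OE replicate 1 and KD lethal replicate 2 either, against 0.72% of all genes (0.257% higher and 0.464% lower). Differences ranged from -0.73 (ARF3) to 0.62 (IAA10), so none reached 2-fold. The 3 genes were PIN5A, with 4.88 and 5.05 in KD wild-type-like against 5.30 and 5.43 in pANDA, SAUR39 (0.44 ± 0.17) and IAA4 (-0.37 ± 0.12). SAUR39 was at the floor in pANDA and IAA4 in KD wild-type-like, so their differences are not exact.

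Over-expression was compared with B4NU to ask which auxin transcripts differ with more OsbZIP48. Of 58 genes 2 fell and 0 rose, against 2.88% of all genes (2.33% lower and 0.542% higher), which is close to the background. The median was -0.16, against -0.05 over all genes, and 43 differences lay below 0, against 10626 of all 17905 genes. The share of auxin genes below 0 rests on OE replicate 1. That array was below the B4NU mean in 51 of the 58 genes, whereas OE replicate 2 was below it in 27. Over all 17905 genes, replicate 1 was below it in 12450 and replicate 2 in 7033.

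PIN5A was at 2.94 and 2.87 in OE and 4.63 and 4.25 in B4NU. It fell by 1.54 ± 0.14, or 2.90-fold (limma, adjusted p = 0.0116), to the edge of the floor, and both OE arrays were alike. GH3.2 was at 3.94 and 4.27 in OE and 5.35 and 5.42 in B4NU, a fall of 2.42-fold (adjusted p = 0.0317). For both genes the groups did not overlap. The calls were not equally stable: that of PIN5A was lost in 2 of 20 alternatives and that of GH3.2 in 10 of 20. GH3.2 did not pass without B4NU replicate 1 or 2 (limma, adjusted p = 0.108 and 0.120), and against pANDA its difference was -0.44 (adjusted p = 0.143).

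In other members the OE replicates lay further apart, on the same side of the vector or on either side of it. IAA10 was at 6.14 and 6.91 in OE and 7.94 and 7.83 in B4NU, a difference of -1.36 ± 0.26 that did not pass (limma, adjusted p = 0.109). IAA5 was at 6.86 and 8.41 in OE and 8.96 and 8.72 in B4NU, so IAA10 and IAA5 were lower on both OE arrays. IAA13 was at 9.32 and 10.33 in OE and 10.00 and 9.95 in B4NU, so that its replicates lay on either side of the vector. The replicates lay on opposite sides of the B4NU mean in 32 of the 58 genes, against 7115 of all 17905 genes. Among the 32 were 14 of 26 IAA and 12 of 17 ARF genes. ARF12, at 5.89 and 7.09 in OE and 6.94 and 6.97 in B4NU, is 1 of these.

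**Figure D4:**
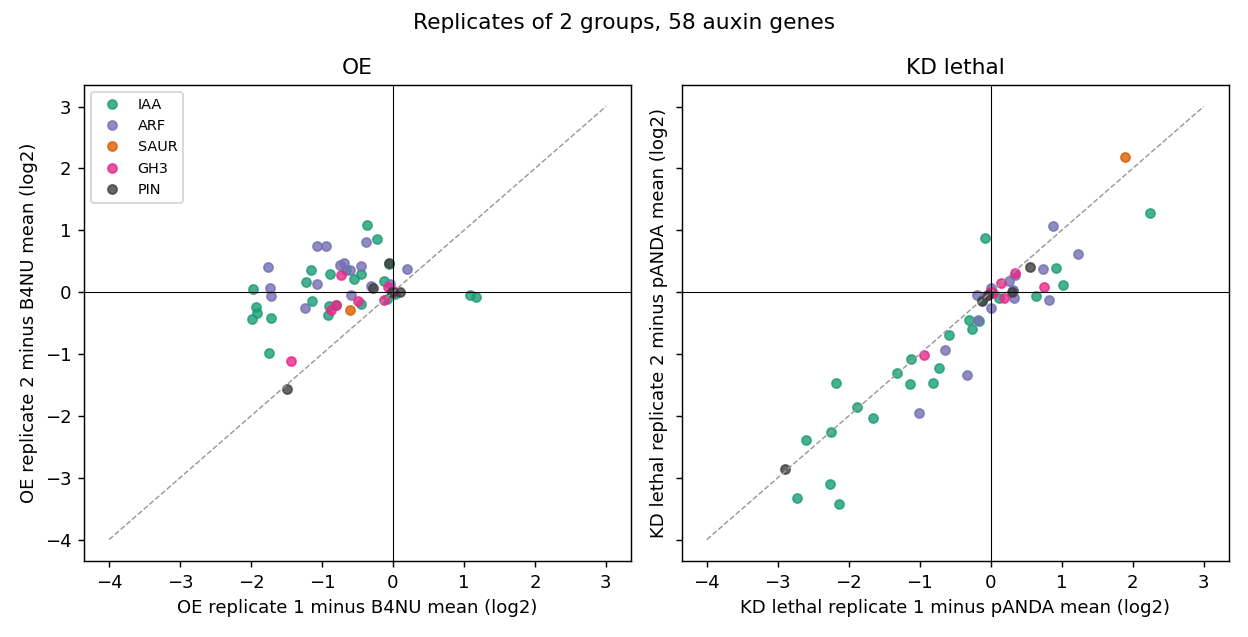
Difference of replicate 1 (horizontal axis) and replicate 2 (vertical axis) from the mean of the own vector, in log2, for the 58 auxin genes in OE (left) and KD lethal (right). Colours are families and the dashed line marks equal differences: in OE replicate 1 lies lower for most genes, while in KD lethal most points lie nearer the line.

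Without OE replicate 1, which leaves OE with 1 array, auxin genes were called in OE at a share close to that of all genes. The differences of those called were -1.57 (PIN5A), -1.11 (GH3.2), 0.47 (PIN2) and 0.02 (GH3.9). Both GH3.9 groups were at the floor. Without OE replicate 2, 17 were called and all were lower, against 28.3% of all genes, so the share of auxin genes was close to the background there too. Without OE replicate 1 and KD lethal replicate 2, PIN5A stayed lower (-1.57), GH3.2 did not pass although its difference was -1.11 (limma, adjusted p = 0.0751), and ARF10, GH3.9 and PIN2 were higher, 4 in all against 10.5% of all genes (5.93% higher and 4.57% lower). With only the 4 arrays of OE and B4NU, 0 members were called by limma, with 3 at an unadjusted p under 0.05, and PIN5A then had an adjusted p of 0.422. With quantile normalization of all arrays 5 were called, 3 lower and 2 higher, against 3.95% of all genes.

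PIN5A and GH3.2 were thus lower than the own vector in both OE and KD lethal. Whether the effects of over-expression and lethal knock-down differ was tested as a contrast of both differences, which share no arrays. Of 58 members 3 were called, against 11.7% of all genes (4.56% higher and 7.18% lower), 2 higher and 1 lower in OE relative to KD lethal. SAUR39 had -0.45 in OE and 2.04 in KD lethal, a difference between effects of -2.49 ± 0.23 (limma, adjusted p = 0.00559). As pANDA was at the floor for SAUR39, neither the KD lethal effect nor this difference is exact. PIN5A had -1.54 and -2.88, a difference of 1.35 ± 0.19 (adjusted p = 0.0195), with KD lethal at the floor and OE at its edge. The PIN5A mean was 4.44 in B4NU and 5.37 in pANDA, which lie in separately normalized sets. Whether these levels bear on the difference was not tested. As KD lethal was at the floor, this PIN5A difference between effects is not exact either. IAA30 had 0.20 and -1.10, a difference of 1.30 ± 0.24 (adjusted p = 0.0420). The IAA13 effects, -0.15 and -2.69, gave a difference of 2.54 ± 0.57 that did not pass (adjusted p = 0.0751). It passed with quantile normalization (2.75, limma adjusted p = 0.0144), but not with the replicate number as a block or with array weights. The difference was 3.04 without OE replicate 1 and 2.03 without OE replicate 2. It was 2.62 without both OE replicate 1 and KD lethal replicate 2. Those fits leave OE without replicates. Without OE replicate 1 and KD lethal replicate 2, 14 members were called, 11 higher and 3 lower, against 27.4% of all genes (12% higher and 15.4% lower).

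The vectors differed in some of the same genes. SAUR39 was at the floor in pANDA and at 6.07 and 6.17 in B4NU, at least 9.05-fold lower in pANDA (limma, adjusted p = 0.000404). PIN5A was 1.90-fold higher in pANDA than in B4NU, GH3.2 was 1.78-fold lower in pANDA, and PIN2 was at least 1.58-fold lower in pANDA. In all 6 members were called, 5 lower and 1 higher, against 11% of all genes (7.42% lower and 3.53% higher). GH3.6 (-0.31), at the floor in pANDA, and GH3.9 (-0.11), at the floor in both vectors, were the other members called. The GH3.9 call thus sets the floors of separately normalized sets against each other and says nothing of its level. Vector and normalization set cannot be told apart here.

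A further 17 genes were taken by names used for auxin synthesis, breakdown, transport, co-repression and related functions. Name matching may take in unrelated genes: OsCRL4 is also named CHARK and OsHKL1, and ASP1 is also named OSAP1. Whether these belong to the auxin pathway was not tested. Of the 17 genes, 1 rose and 1 fell in KD lethal, and 0 were called in OE and 0 in KD wild-type-like (limma, 3 and 1 at an unadjusted p under 0.05). The 2 of 17 in KD lethal stand against 26.2% of all genes, and the 0 in OE and in KD wild-type-like against 2.88% and 0.363%. TPR3 (LOC4332285), which encodes a TOPLESS-related co-repressor of the kind that Aux/IAA proteins recruit, was at 8.43 and 8.83 in KD lethal, 7.04 and 6.59 in the KD wild-type-like group and 6.56 and 6.64 in pANDA, a rise of 4.08-fold (limma, adjusted p = 0.0023). ILL3 (LOC4334707), an auxin-conjugate hydrolase gene, was at 2.46 and 2.84 in KD lethal, 4.99 and 5.54 in the KD wild-type-like group and 4.31 and 4.52 in pANDA, and thus at least 2.77-fold lower in KD lethal (adjusted p = 0.012).

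FIB (LOC4325198), an aminotransferase gene of auxin synthesis, differed by -1.14 ± 0.28 in KD lethal (limma, adjusted p = 0.0631). DAO (LOC4336150), the gene of an auxin oxidase, was at 6.77 and 6.81 in KD lethal against 6.51 and 6.35 in pANDA, and at 4.83 and 4.68 in OE against 5.37 and 5.36 in B4NU. Neither difference passed alone, while the difference between the effects, -0.98 ± 0.15, did (adjusted p = 0.0263), as did those of TPR3 (-1.51) and ILL3 (2.28, not exact because ILL3 was at the floor in KD lethal).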

How the data were processed

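The authors deposited 1 table of log2 signal values, 57381 probe sets by 10 arrays. GCOS and version 1.4.1.46 of Affymetrix Expression Console appear in the submitters' processing notes, without a summarization or normalization method. The log2 scale was read off the range of the values, and the number of arrays limits the precision. Arrays had 16934 to 20119 identical values in pairs within the sets and 0 between sets, so the sets were taken as normalized separately. After leaving out 123 controls, 57258 probe sets were tested, of which 22436 are paired with 1 gene, 95 with several and 34727 with none; names come from the RefSeq table of ASM3414082v1.

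A linear model with 1 mean for each group was run in limma 3.58.1 under R 4.3.3 (lmFit, eBayes without trend, 5 residual degrees of freedom, two-sided), and p-values were adjusted by Benjamini-Hochberg over all tested probe sets. It was tested on simulated data. A bound sets the bright mean against the upper edge of the floor, 0.5 above the lowest value. Replicates are labelled biological without naming cultures or lines, so p-values measure only the spread between these samples. Members and lists were chosen with earlier results of these data known. Genes named are those called in any comparison, the gene with the highest mean of each family and others given as contrasts to them, the last chosen after their values were seen. The 3' to 5' check was computed first on gapdh, actin and ef1a controls and then on the Gapdh, cyclophilin and ubiquitin controls, and both are reported. The alternative without OE replicate 1 and KD lethal replicate 2 was chosen after seeing the data and follows the second check. Other alternatives covered scaling, filter, model options, probe set choice, single arrays and the replicate number as a block. Motifs in promoters and proteins, and planned list genes without a match, were not analysed here.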

Additional observations from a re-analysis of the deposited data

Results flagged for a closer look

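For 3 genes the effect of over-expression differed from that of lethal knock-down by limma's contrast of both. They were IAA30 (1.30), PIN5A (1.35) and SAUR39 (-2.49), as log2 differences of OE minus B4NU less KD lethal minus pANDA. Across the 19 alternatives for each, SAUR39 passed in 19, PIN5A in 14 and IAA30 in 8. The size is not exact for SAUR39, with pANDA at the floor, or for PIN5A, with KD lethal at the floor and OE at its edge.

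Further probe sets of 2 ARF genes gave signals that the chosen probe sets did not. The lower-signal probe set of ARF4 was higher in KD lethal, by 1.82 against pANDA (limma, adjusted p = 0.00316) and by 1.22 against KD wild-type-like (adjusted p = 0.0129), and its effect in OE less that in KD lethal was -1.97. The chosen ARF4 probe set differed by 0.56 ± 0.33 from pANDA. The further probe set of ARF23 was lower in KD lethal than in KD wild-type-like by 0.82 on the log2 scale (-0.82, adjusted p = 0.0363), where the chosen one had -1.93 and did not pass.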

How the results depend on the processing

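The 24 called differences of single members passed in 364 of 468 recomputations and kept their direction in 467. Many settings, such as the replicate number as a block, the filter and array weights, leave the estimate unchanged, so its direction could not turn there. These differences were also picked because they were called in these data. The exception in direction was SAUR39 in KD lethal, -1.31 with the other vector as control. Counts of members called moved more, and the share of all genes called moved with them, from 10.7 to 47.4% over the settings for KD lethal against pANDA and from 0.067 to 28.3% for OE against B4NU. With quantile normalization they were 5 in OE against B4NU, 16 in KD lethal against pANDA, 16 between the KD groups and 10 for the difference of effects. Median centring of values above the floor gave 22, 21 and 12 for the last 3, and it moved the median of all genes in OE by 0.21 to 0.16, against which PIN5A stood at -1.48 and GH3.2 at -1.22. The filter on low values, which tests fewer probe sets and only 44 members, gave 17, 19 and 7, and the mean of all probe sets of a gene gave 19, 18 and 9. In KD lethal against pANDA and between the KD groups, 47.4 and 44.6% of all genes were called with the filter. These shares were 35.1 and 32.6% with the mean of probe sets, 39.6 and 38.4% with median centring and 30.8 and 27.9% with quantile normalization. In OE, quantile normalization gave 3.95% of all genes. Array weights gave 0 in OE (limma, 4 at an unadjusted p under 0.05), then 19, 18 and 1. The shares of all genes with array weights were 0.24% in OE, 36.6% in KD lethal and 28.4% between the KD groups. With only the 4 arrays of the groups compared, 0 were called in OE, against 0.067% of all genes, and 2 between the KD groups. With the other vector as control, 7 members were called in OE, 16 in KD lethal and also 7 in KD wild-type-like, against 18.3, 27 and 11% of all genes. Without OE replicate 1 and KD lethal replicate 2, an alternative chosen after seeing the data, the counts were 4 in OE, 23 in KD lethal, still 0 in KD wild-type-like, 24 between the KD groups and 14 for the difference of effects. Leaving out 1 array at a time gave 1 to 17 in OE, 4 to 19 in KD lethal, 0 in KD wild-type-like, 5 to 21 between the KD groups and 1 to 16 for the difference of effects, where a group left with 1 array is assumed to vary like the others. The cause of these moves was not tested.

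With the replicate number as a block, 2, 8, 0, 7 and 1 members were called in OE, KD lethal, KD wild-type-like, between the KD groups and for the difference of effects, and ARF24 and IAA17 lost their calls in KD lethal. Deviations of same-numbered arrays correlated between -0.57 and 0.31 over 10 pairs of groups, with 2 pairs above 0.1. These values show no common pattern by replicate number, but with 2 arrays a group they cannot exclude that the numbers pair the samples.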
